A study of Caenorhabditis elegans with 6 samples.

Results

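The genes described here encode the proteins of the cytosolic ribosome of Caenorhabditis elegans. Members were the nuclear protein-coding genes of the assembly WBcel235 whose symbol starts with rpl- or rps- and a digit, which gave 78 of 19971 genes, 48 for the large (rpl-) and 30 for the small (rps-) subunit. Chromosome X carried 2 of them and the autosomes 76. The assay was ATAC-seq: a transposase, Tn5, cuts into accessible DNA and leaves sequencing adapters there. Nuclei came from worms of mixed stages, mostly larvae, of the strain OH11061 with the genotype otIs381, a transgene that marks neuronal nuclei with GFP. The neuronal group held 3 samples of nuclei sorted for GFP and for the DNA stain DAPI, and the total group held 3 samples of nuclei sorted for DAPI alone, 50000 nuclei each. Both groups carried the same transgene, and the total nuclei include GFP-positive ones. The comparison asks how accessible chromatin of neurons relates to that of the whole animal.

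A ribosome joins a small subunit, which binds the mRNA and checks each codon against tRNAs, to a large subunit, which forms peptide bonds and holds the tunnel through which the new chain leaves. Every cell makes both, and the proteins are needed in matched amounts, so their genes are known as broadly and strongly expressed housekeeping genes. In worms as in other animals these genes are short. Neurons translate at the cell body and also in their processes.

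The authors deposited 1 peak list per group on build ce11, called the neuronal list (2313 peaks) and the total list (2683 peaks) after their labels. No value per sample was analysed here, so neither the spread between samples nor the read depth can be given. Of 8 neuronal markers (ric-19, rab-3, unc-104, unc-64, unc-31, unc-119, snb-1 and rgef-1), 1 had a peak summit within 1000 bp of a gene end in the neuronal list, ric-19, and 2 in the total list, ric-19 and snb-1. The ric-19 promoter is known to drive the otIs381 reporter, and at that site signal of the transgene and of the native locus cannot be told apart. Muscle markers had 1 of 4 in the neuronal list and 2 of 4 in the total list, intestinal markers 1 of 4 in each list, hypodermal markers 0 of 4 in each list and germline markers 1 of 4 and 0 of 4. The neuronal list thus held peaks at unc-54, elt-2 and glh-1, which mark muscle, intestine and germline. Over all genes, 11.4% had such a summit in the neuronal list and 13.6% in the total list. Counts this small cannot show whether nuclei of other tissues were present. Neither their part in the results below nor signal of the transgene at these sites was tested.

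Most ribosomal protein genes had a peak beside them. A member was counted when the summit of a peak, its highest point, lay within 1000 bp of its start or end. In the neuronal list 50 of 78 members had such a summit, a share of 64.1% (exact binomial 95% interval 52.4% to 74.7%), and over all 19971 nuclear protein-coding genes the share was 11.4%. The total list gave 56 of 78 (71.8%, 60.5% to 81.4%), against 13.6% of all genes. Counting either list, 57 of 78 members had a peak (73.1%, against 14.1% of all genes). The members are short, from 276 to 1734 bp, and among the 8395 other genes no longer than the longest member the shares were 8.25% in the neuronal list and 10.2% in the total list. Short genes thus had a lower share than other genes as a whole. Counting a peak only for the gene with the nearest end, 33.3% of members had a peak in the neuronal list and 38.5% in the total list, against 7.43% and 8.71% of all genes. With a window of 250 bp the members' shares were 16.7% and 17.9%, against 4.56% and 5.68%, and with the stronger 50% of each list they were 26.9% and 34.6%, against 5.06% and 6.07%. The members' share was thus above that of all genes in each of these settings. Intervals cover counting error only, and genes are not replicates.

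Shares were lower for genes of related roles, counted the same way. Of the 71 genes of the mitochondrial ribosome (symbols mrpl- and mrps-), 13 had a summit within the window in the neuronal list (18.3%) and 16 in the total list (22.5%). The proteasome, which degrades proteins, had 9 and 12 of 33 subunit genes (27.3% and 36.4%). Translation factors and tRNA synthetases had 17 and 22 of 73 (23.3% and 30.1%). The exact intervals of these 3 groups lay below those of the cytosolic ribosomal protein genes, and the highest, for the proteasome, reached 45.5% in the neuronal list and 54.9% in the total list.

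**Figure D1:**
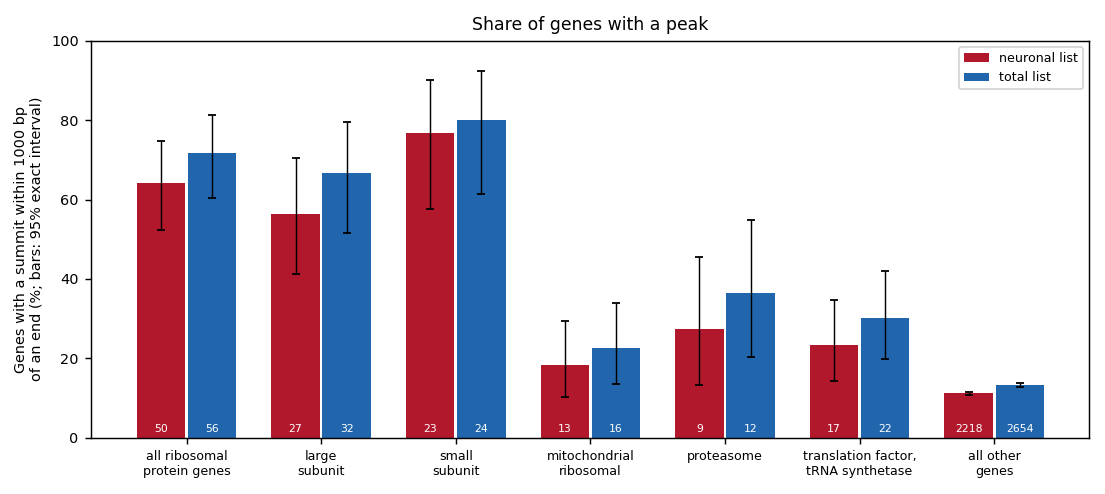
Share of genes (y axis, percent) with a peak summit within 1000 bp of a gene end in the neuronal list (red, left bar) and the total list (blue, right bar), for ribosomal protein genes, their subunits, related gene groups and all other protein-coding genes. Error bars are exact binomial 95% intervals and white digits are gene counts. The bars of the ribosomal protein genes stand at 64.1% and 71.8%, and those of all other genes at 11.15% and 13.3%.

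By subunit, 27 of 48 large subunit genes (56.3%, exact interval 41.2% to 70.5%) and 23 of 30 small subunit genes (76.7%, 57.7% to 90.1%) had a peak in the neuronal list. The counts were 32 of 48 (66.7%) and 24 of 30 (80.0%) in the total list. The difference, large minus small, was -20.4 percentage points in the neuronal list (Newcombe 95% interval -38.5 to 1.49) and -13.3 points in the total list (-30.9 to 7.53). Both intervals include 0. Of the other settings, the interval left out 0 in the neuronal list with a window of 2000 bp (-23.8 points, -41.2 to -2.08) and in the total list with a window of 250 bp (-19.6 points, -38.4 to -1.81), and in each case the interval of the other list included 0. With a peak counted only for the gene with the nearest end, the difference was -5.42 points in the neuronal list and -2.50 points in the total list.

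Members with peaks were spread over the autosomes. The neuronal list had 16 of 23 on chromosome I, 4 of 11 on II, 11 of 18 on III, 13 of 17 on IV and 5 of 7 on V. The total list had 19, 6, 12, 13 and 5 on the same chromosomes. Chromosome II had the lowest share in both lists, from few genes. On X, rpl-11.2 had a peak in both lists and rpl-23A.1 in neither, against 49 of 76 autosomal members (64.5%) in the neuronal list and 55 of 76 (72.4%) in the total list. With 2 genes on X, a share there has an exact interval of 1.26% to 98.7% and cannot be compared with the autosomes. Among other genes the shares in the neuronal and total lists were 13.3% and 14.9% on X, and 10.8% and 13.1% on the autosomes.

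The summits had a narrow range of positions, outside the genes. In the neuronal list all 51 pairs of a member and a summit had the summit outside the gene, at 154 to 734 bp from its end, with a median of 307 bp. For other genes 88.5% of 2286 pairs were outside, and the distances ran from 0 to 1000 bp with a median of 326 bp. The members are short, which caps the distance of a summit inside one, and positions were not compared with genes of like length. Of 57 member pairs in the total list 56 were outside, again from 154 to 734 bp, and the exception was a weak peak inside rps-29.

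Between 150 and 500 bp outside the gene lay 46 of the 51 member pairs in the neuronal list (90.2%), against 43.7% of the pairs of other genes. For the total list it was 50 of 57 (87.7%) against 44.4%. These bounds were chosen after the distances were seen. The closest summit lay 154 bp from rps-13 in both lists. The most distant within the window was 734 bp from rps-18 in both lists and lay inside the neighbouring gene sec-61.A, across a gap of 414 bp. It was followed by rps-27 at 605 and 602 bp in the neuronal and total lists. Just beyond the window came a summit 1312 bp from rpl-22 in the total list, and then rps-16 at 1753 and 1754 bp in the neuronal and total lists. The annotation used here gives no strand, so it is not known which of these ends are 5′ ends.

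**Figure D2:**
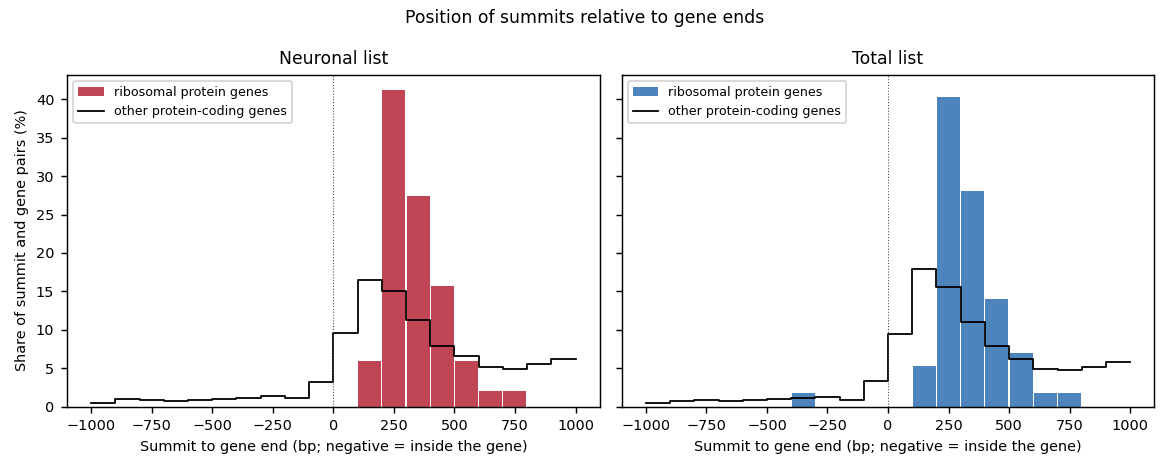
Position of summits relative to the nearer end of a gene (x axis, bp, negative inside the gene) as a share of all pairs of a summit and a gene within 1000 bp (y axis, percent), in the neuronal list (left) and the total list (right). Filled bars are ribosomal protein genes and the black line is all other protein-coding genes. The tallest filled bar in each panel covers 200 to 300 bp outside the gene, with 40.4% of pairs in the total list, where the black line has 15.6%.

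Most of these summits also had the end of another gene close by. The end of at least 1 further protein-coding gene was within 1000 bp of the summit for 45 of 49 member peaks in the neuronal list (91.8%) and 51 of 55 in the total list (92.7%). For other peaks near a gene end the shares were 48.5% and 51.2%. The gap between the member and its neighbour on the side of the peak had a median of 599 bp in both lists. The member's end was the nearest to the summit in 26 of 51 pairs of the neuronal list and 30 of 57 pairs of the total list (51.0% and 52.6%), against 64.7% and 63.4% of the pairs of other genes. In the other pairs another gene's end was nearer, and which of the neighbours a site belongs to was not tested.

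In 2 cases both neighbours were members. The genes rps-10 (small subunit) and rpl-24 (large subunit, part of a bridge between the subunits) lie 609 bp apart on chromosome I and share a peak whose summit was 348 bp from rps-10 and 262 bp from rpl-24 in both lists. This peak had a fold enrichment of 10.9 in the neuronal list (width 2123 bp) and 11.0 in the total list (1966 bp). The genes rpl-41.1 and rpl-41.2, copies that encode the smallest protein of the large subunit, lie 699 bp apart and share a peak with its summit 410 bp from rpl-41.1 and 290 bp from rpl-41.2. Its width was 2590 bp in the neuronal list and 1667 bp in the total list, at folds of 9.67 and 9.47. The members rps-14 and rpl-36, also neighbours, lie 662 bp apart on chromosome III, and neither had a peak in either list.

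The peaks beside ribosomal protein genes mostly had low folds for their lists. Fold enrichment is the authors' peak caller's ratio of signal at the summit to local background, and it is used here to place a peak within its list. In the neuronal list the 49 member peaks had folds from 5.68 to 11.9 with a median of 8.66, and the median of all 2313 peaks was 10.5. In the total list the 55 member peaks had folds from 1.35 to 13.6 with a median of 8.70, and the median of all 2683 peaks was 10.7. Only 6 of 49 member peaks in the neuronal list (12.2%) lay above the list's median fold, against 50.8% of the other peaks, and in the total list 10 of 55 did (18.2%), against 50.6%.

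In the lowest 25% by fold lay 24 of 49 member peaks in the neuronal list (49.0%) and 27 of 55 in the total list (49.1%). Of the other peaks 24.5% did in each list. None of the 49 lay in the highest 25% of the neuronal list by fold, and 1 of 55 did in the total list, that of rps-9. By the authors' p-value these peaks stood closer to the middle of their lists, at a median percentile of 44.4 in the neuronal list and 48.3 in the total list. By fold the median percentiles were 25.7 and 25.6. Low folds were also seen beside other genes, as the proteasome peaks had median folds of 7.70 in the neuronal list (9 peaks) and 7.77 in the total list (13 peaks), and the peaks of mitochondrial ribosomal genes 9.40 and 9.39.

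**Figure D3:**
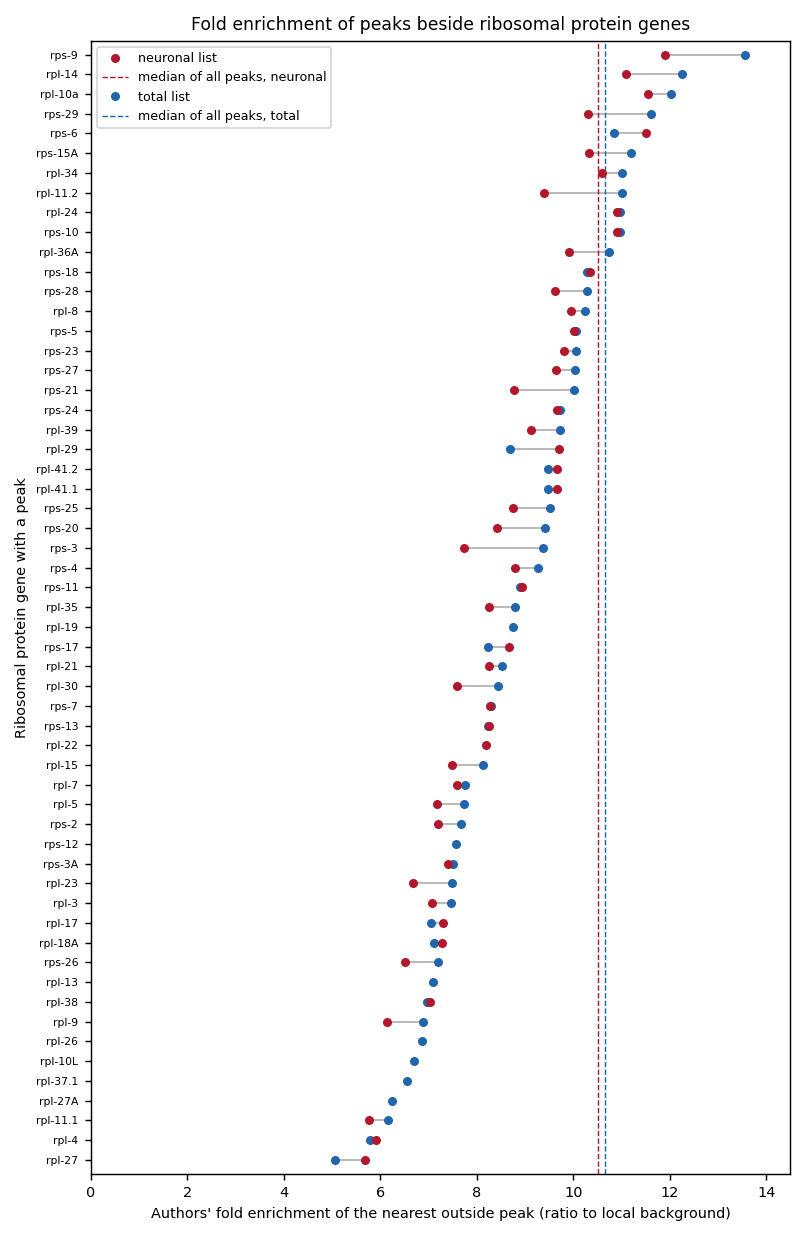
Authors' fold enrichment (x axis, ratio to local background) of the nearest outside peak of each ribosomal protein gene with a peak (y axis), in the neuronal list (red) and the total list (blue). Grey lines join the values of a gene, a missing point means that no summit lay within 1000 bp in that list, and dashed lines are the medians of all peaks, 10.5 and 10.7. Most points lie left of both dashed lines.

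The highest folds belonged to genes of both subunits. At rps-9, whose bacterial relative is among the proteins that start small subunit assembly, the fold reached 11.9 in the neuronal list and 13.6 in the total list, with the summit 205 and 204 bp outside the gene. The gene rpl-10a, for the protein of the mobile L1 stalk near the tRNA exit site, had folds of 11.54 in the neuronal list and 12.02 in the total list. The gene rps-6, whose protein is the classic substrate of S6 kinase in growth signalling, had folds of 11.5 in the neuronal list and 10.8 in the total list. The others of the 10 highest in the neuronal list were rpl-14 (fold 11.08, and 12.3 in the total list, the next after rps-9 there), rps-10 and rpl-24 with their common peak (10.9), rpl-34 (10.6), rps-18 (10.4), rps-15A (10.3) and rps-29 (10.3).

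By the nearest peak of each gene, the lowest folds in the neuronal list belonged mainly to large subunit genes. These were rpl-27 (fold 5.68), rpl-11.1 (5.76), rpl-4 (5.92), whose protein lines the exit tunnel, and rpl-9 (6.15), followed by the small subunit gene rps-26 (6.50), whose protein lies where the mRNA leaves the subunit. These genes had folds of 5.05, 6.16, 5.79, 6.89 and 7.20 in the total list. Their percentiles by fold ran from 2.40 to 6.38 in the neuronal list and from 1.32 to 11.16 in the total list. The small subunit gene rps-25 also had a second, farther peak in the neuronal list, with a fold of 6.10. The weak peak inside rps-29 in the total list had a fold of 1.35 and a width of 162 bp, beside the main peak of that gene, which had a fold of 10.3 in the neuronal list and 11.6 in the total list.

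Many of the peaks were wide. Member peaks had a median width of 1237 bp in the neuronal list (range 369 to 3000 bp) and 1432 bp in the total list (162 to 3183 bp), while over all peaks the medians were 799 and 823 bp. At least 2000 bp were covered by 15 of 49 member peaks in the neuronal list (30.6%), against 47 of 2264 other peaks (2.08%). Of the total list's member peaks 16 of 55 were this wide (29.1%), against 43 of 2628 (1.64%). Among other peaks that also had the ends of 2 or more genes in the window, a comparison added after the values were seen, 3.97% and 2.61% were this wide. The proteasome peaks had median widths of 1437 bp in the neuronal list and 1136 bp in the total list, above and below those of the ribosomal protein genes.

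Wide peaks made up a smaller share beside large than beside small subunit genes. In the neuronal list the median width was 821 bp for large subunit peaks and 1846 bp for small subunit peaks, and in the total list it was 972 and 1973 bp. Of the large subunit peaks 5 of 26 were 2000 bp or wider in the neuronal list and 5 of 31 in the total list, and of the small subunit peaks 11 of 24 and 11 of 25. A peak shared by genes of both subunits counts for both. The median folds were 7.89 for large and 8.86 for small subunit peaks in the neuronal list, and 7.75 and 9.52 in the total list. Above the list's median fold lay similar shares, 4 of 26 large and 3 of 24 small subunit peaks in the neuronal list. In the total list it was 6 of 31 and 5 of 25. The contrast between subunits in width and median fold was seen in the data and was not tested.

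A wide peak often spanned the whole gene. Of 51 pairs in the neuronal list 20 had the gene wholly inside the peak, as did 24 of 57 pairs in the total list. Neither this count nor that of genes not touched by their peak was made for other genes. The members are short, so the counts are not shown to be particular to them. By subunit, 7 of 27 large and 13 of 24 small subunit pairs were covered in the neuronal list. In the total list it was 8 of 32 and 16 of 25. These covered genes included rps-2, with the widest member peak of the total list (3183 bp, and 2986 bp in the neuronal list), and rpl-39, with the widest of the neuronal list (3000 bp, and 2232 bp in the total list). Others were rpl-10a, rpl-18A, rps-28, rps-15A, rps-17, rps-20, rps-23, rps-4, rps-6 and rps-13. Of their peaks the narrowest was that of rps-13, with 2051 bp in the neuronal list and 1973 bp in the total list. At the other extreme 15 of 51 and 10 of 57 pairs had a peak that did not touch the gene, as at rpl-3, whose protein reaches towards the peptidyl transferase centre (461 and 439 bp wide), and rps-24 (678 and 629 bp) in the neuronal and total lists.

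**Figure D4:**
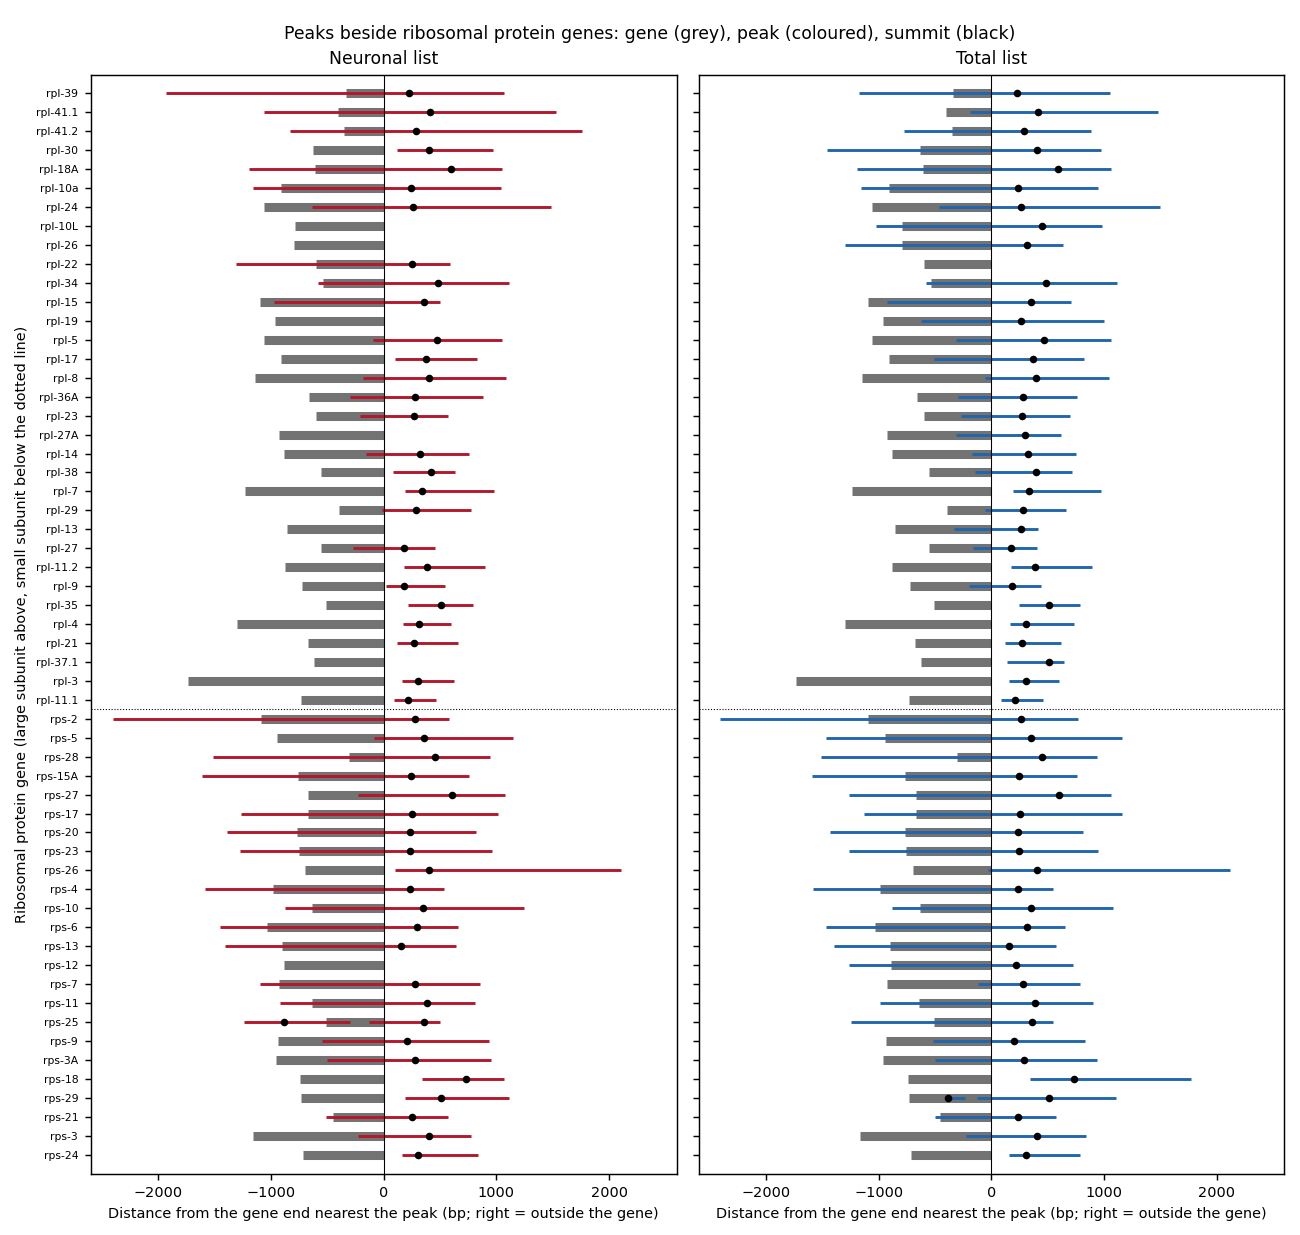
Map of each ribosomal protein gene with a peak (rows; large subunit above and small subunit below the dotted line), aligned at the gene end that its outside peak faces, with bp on the x axis and positive values outside the gene. Grey bars are genes, coloured lines are peaks in the neuronal list (red, left) and the total list (blue, right), and black dots are summits. Rows with a grey bar alone have no summit within 1000 bp in that list. The summits stand in a column 154 to 734 bp outside the genes, apart from a further peak at rps-25 in the neuronal list and the weak peak inside rps-29 in the total list.

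**Figure D5:**
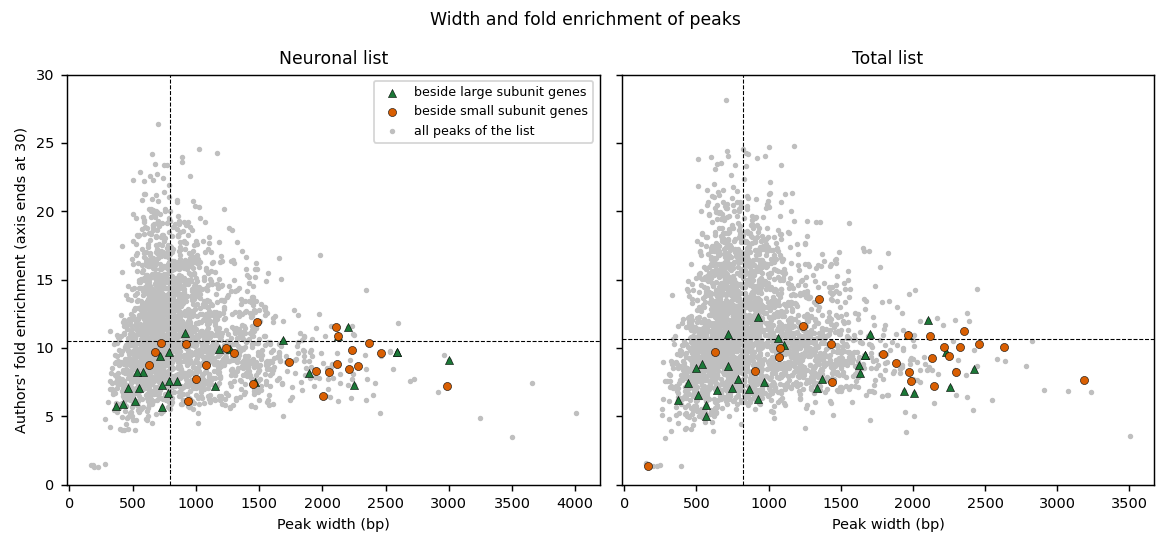
Width in bp (x axis) and authors' fold enrichment (y axis, cut at 30, which leaves out 1 peak per list) of all peaks (grey) and of peaks beside large subunit genes (green triangles) and small subunit genes (orange circles), in the neuronal list (left) and the total list (right). Dashed lines are the medians of all peaks. Of the ribosomal protein gene peaks, 15 of 49 and 16 of 55 are 2000 bp or wider, and most lie below the horizontal line.

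Neuronal and total nuclei had nearly the same set of ribosomal protein genes with peaks. A summit lay within the window for 49 members in both lists (62.8%, against 10.8% of all genes), for 1 in the neuronal list alone (1.28%, against 0.511%), for 7 in the total list alone (8.97%, against 2.72%) and for 21 in neither (26.9%, against 85.9%). These shares are of all members and of all genes, with or without a peak. A peak in either list was found for 73.1% of members and 14.1% of all genes. Of these, the total list alone held a smaller part for members (8.97 of 73.1 points) than for all genes (2.72 of 14.1 points). Most genes with a peak had one in both lists, among members (62.8 of 73.1 points) and among all genes (10.8 of 14.1 points). These differences were not tested. A peak missing from a list of reproducible peaks may still be accessible DNA. The total list is the longer of the lists, and cut to the length of the other it left 3 members with a peak there alone.

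The member with a summit in the neuronal list alone was rpl-22, and its locus was covered in both lists. The neuronal list had a peak of fold 8.18 and width 1897 bp with its summit 247 bp outside rpl-22. The total list had 1 peak over the same stretch, of fold 8.65 and width 2783 bp, but with the summit 1312 bp from the gene. By this count the difference at rpl-22 is one of summit position, and the overlapping peaks also differed in width.

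The members with a summit in the total list alone were rpl-10L, rpl-13, rpl-19 (part of a bridge between the subunits), rpl-26 (near the tunnel exit), rpl-27A and rpl-37.1 of the large subunit and rps-12 of the small subunit. No peak of the neuronal list overlapped theirs, and its nearest summits were 6354 bp (rpl-37.1) to 33329 bp (rpl-26) from these genes. Their folds in the total list were 8.75 for rpl-19, 7.56 for rps-12, 7.08 for rpl-13, 6.86 for rpl-26, 6.69 for rpl-10L, 6.56 for rpl-37.1 and 6.25 for rpl-27A. By the authors' p-value they stood in the weaker part of that list, from the 5.94th percentile at rpl-10L, whose summit lay inside the neighbouring gene ints-11, to the 30.6th at rpl-13. Whether these 7 sites differ between the groups was not tested.

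Where both lists had a peak, most sites coincided. Of the neuronal list, 49 of 49 member peaks overlapped a total peak, against 95.8% of the other peaks, and 47 of 55 member peaks of the total list overlapped one of the neuronal list (85.5%, against 82.5%). Of 46 member peaks paired one to one, 27 had the same summit (58.7%, against 52.3% of 2153 other pairs) and the largest shift was 20 bp. The peaks at rpl-22 and at rps-25 are not among these pairs. With summits required to lie within 100 bp, 95.9% of the neuronal member peaks had a partner in the total list. Fold was lower in the neuronal list in 34 of the 46 (73.9%), against 83.8% of the other pairs. Since the depth behind each list is not known and their folds need not be on 1 scale, ranks among the 2199 pairs were compared. The member pairs had a median difference of 1.14 percentile points, neuronal minus total (95% order-statistic interval -0.455 to 3.37), 28 higher and 18 lower, and other pairs had a median of 0.

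Single members differed by up to 19.2 points between the lists. The rank in the neuronal list exceeded that in the total list most at rpl-29, with a fold of 9.70 in the neuronal list and 8.70 in the total list, percentiles of 37.2 and 18.0. It was followed by rps-6 (percentiles 59.5 and 43.5), rps-17 (23.7 and 13.8), the common peak of rpl-41.1 and rpl-41.2 (36.8 and 27.0) and rps-18 (45.2 and 36.4). The rank was lower in the neuronal list by most at rpl-11.2 (33.4 and 45.5), the gene of a protein that carries the 5S RNA into the large subunit, and at rps-3 (14.4 and 25.8), whose protein lines the mRNA entry channel, followed by rps-29 (44.7 and 53.1), rps-21 (25.1 and 32.9) and rps-9 (63.4 and 69.9). Over all other pairs the differences ran from -41.1 to 30.6 with an SD of 6.37 across peaks, and the member pairs had an SD of 6.19. No member difference can be set against replicate error, since no values per sample were analysed here.

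Widths agreed less well than summits. Of the 46 member pairs, 8 differed in width by more than 1.5 times between the lists (17.4%), against 88 of 2153 other pairs (4.09%). Examples are rpl-30, with 851 bp in the neuronal list and 2427 bp in the total list, rps-5 with 1237 and 2631 bp, rps-27 with 1300 and 2329 bp, and in the other direction rps-7 with 1954 and 908 bp. These examples were chosen after their values were seen. At rps-25 the neuronal list had 2 peaks, 941 bp wide on one side of the gene (fold 6.10) and 630 bp wide on the other (8.75), where the total list had 1 peak of 1795 bp across the gene (9.52). The borders of member peaks thus differed between the lists in both directions, while the summits of the 46 pairs lay within 20 bp of each other.

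Genes of duplicated proteins did not share a pattern. Reads from near-identical copies can be split or lost in mapping, and the sources used here do not say how multiple matches were treated. Both rpl-11 copies had a peak in both lists, rpl-11.2 on X with folds of 9.39 and 11.0 and rpl-11.1 on V with 5.76 and 6.16, in the neuronal and total lists. Both rpl-41 copies lay beside their common peak. Of the rpl-37 copies, rpl-37.1 had a summit 506 bp away in the total list alone and rpl-37.2, a gene of 276 bp, had none within 3299 bp. Neither rpl-23A copy had a peak, with the nearest summits 3137 and 3136 bp from rpl-23A.1 and 23609 and 23540 bp from rpl-23A.2 in the neuronal and total lists.

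The 21 members without a peak in either list, 15 of the large and 6 of the small subunit, were far from any summit. The nearest summit lay at a median of 6460 bp in the neuronal list and 5091 bp in the total list. The nearest cases were rps-16 (1753 and 1754 bp), rpl-13A (6460 and 1764 bp), rps-15 (2126 and 2124 bp), rps-27A (2254 and 2259 bp), made in many animals as a fusion with ubiquitin, and rps-8 (2839 and 2840 bp). Members with and without peaks were of like length, with median spans of 756 and 729 bp. The larger of the gaps to the neighbouring genes had a median of 744 bp for members with a peak in either list and 802 bp for those without, and the smaller gap 117 and 286 bp.

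Other genes of the ribosome and its supply were counted the same way. The stalk genes rplp-0, rplp-1, rplp-2.1 and rplp-2.2, whose acidic proteins help to recruit translation factors, were not matched by the symbol rule and were added after the values were seen. Of these, rplp-2.1 (fold 7.41 in the neuronal list and 8.41 in the total list) and rplp-2.2 (7.28, in the neuronal list alone) had a peak. The gene ubq-2, which encodes ubiquitin fused to a large subunit protein, had a peak 350 bp outside in both lists, 2959 bp wide in the neuronal list and 1884 bp wide in the total list. The gene of the small subunit scaffold protein rack-1 had none.

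Of 26 matched genes of ribosome assembly and ribosomal RNA synthesis, 4 had a peak in the neuronal list (15.4%) and 8 in the total list (30.8%), against 11.4% and 13.6% of all genes. The share in the neuronal list was near that of all genes. Those in both lists were fib-1 (fibrillarin, which methylates ribosomal RNA; folds 11.4 and 11.8), dkc-1 (dyskerin, which makes pseudouridine; 7.56 and 7.68), nol-10 (16.5 and 17.2) and lpd-7 (6.15 and 6.89), in the neuronal and total lists. The lpd-7 peak is the one counted for rpl-9. Those in the total list alone were nol-9, pro-3, rbd-1 and wdr-46. Of 12 genes of growth signalling, 4 had a peak in the neuronal list (33.3%) and 5 in the total list (41.7%). These were rheb-1, a GTPase that activates the TOR kinase, larp-1, whose mammalian relative binds mRNAs of ribosomal proteins, the AMP-activated kinase gene aak-2 and the cap-binding factor gene ife-2 in both lists, and ragc-1 in the total list alone. The genes let-363 (TOR), daf-15, rsks-1 (S6 kinase), raga-1, mml-1, mxl-2 and efk-1 had no summit within the window in either list.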

How the data were processed

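ATAC-seq was carried out on 3 neuronal and 3 total samples, grouped by the labels, which do not say whether samples came from separate cultures. Per the submitters' processing notes the build was ce11 and the tools, named without role or parameter, were MACS2, Bowtie2 2.2.6, Picard, SAMtools 1.7, cutadapt 1.9.1 and bedtools 2.26. How duplicates and the Tn5 offset were handled, and how samples were combined, is not stated in the sources used here. Each group has 1 narrowPeak list deposited by the authors, whose name gives an IDR (irreproducible discovery rate) threshold of 0.1. Its deposited columns hold a scaled IDR score (up to 1000), a fold enrichment (ratio to local background), −log10 p-values, and a summit offset.

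Gene spans came from the RefSeq table of WBcel235, the same sequence as ce11. It gives no strand, sequence or exons, so the planned analyses of 5′ ends, promoter motifs and protein identity were not run, and all distances are to either gene end. A summit counted for every gene with an end within 1000 bp. Peaks were shared if they overlapped by at least 1 bp, and peaks with 1 partner each way were paired for ranks, a restriction added after seeing the data. Shares have exact binomial and differences Newcombe 95% intervals. No test was run, because there is 1 pooled list per group. The counting was tested on simulated data.

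Members, gene lists and alternatives were chosen with earlier results of these data known. Named were the 10 members of highest and 5 of lowest fold of their nearest peak in the neuronal list, those with a peak in 1 list alone, X-linked members, duplicated genes, the 5 largest rank differences each way, the 5 nearest members without a peak and ribosomal proteins named otherwise (of which rla-0, rla-1, rla-2 and ubl-1 did not match by symbol). Further members named were picked with their values seen. Alternatives varied the window, the assignment, the peak set, the overlap rule and the membership. Python 3.11.15, numpy 2.4.6, scipy 1.17.1, pandas 2.3.3, statsmodels 0.14.6 and matplotlib 3.10.9 were used.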

Additional observations from a re-analysis of the deposited data

How the results depend on the processing

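No paired analysis was possible because samples are pooled in each list, and no sample could be left out in turn. Of 134 values under alternatives, 111 stayed within the interval of the value given (or, for counts, within 1.5 times it), 23 moved and 0 changed sign. Some of the 111 could not move. Equal numbers of peaks cut the total list alone, and no neuronal member peak had a fold below 2, the limit of another alternative. The neuronal shares, subunit difference and medians were therefore the same in both. Only the difference between subunits and the rank difference could change sign, as shares, medians and counts cannot. A window of 250 bp gave member shares of 16.7% in the neuronal list and 17.9% in the total list (all genes 4.56% and 5.68%), 2 members in the total list alone, median widths of 2120 and 2047 bp and median distances of 232 and 228 bp, the distances smaller by construction. Counting a peak only for the gene with the nearest end gave 33.3% and 38.5% (all genes 7.43% and 8.71%), with 0 members in the neuronal list alone and 4 in the total list alone. The stronger 50% of each list by p-value gave 26.9% and 34.6% (all genes 5.06% and 6.07%) and median folds of 9.67 and 10.0. Members in the neuronal list alone were 0 with a window of 2000 bp and with any base of a peak in the window, 2 with equal numbers of peaks (and 3 in the total list alone), and 2 with the stalk genes. With 50% reciprocal overlap 91.8% of the neuronal member peaks were shared. Genes no longer than the longest member had background shares of 8.25% and 10.2%. The large minus small difference kept its sign under every alternative run. The cause of the other changes was not tested. Depth per sample was not analysed here, which limits any statement on a missing peak.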

Other observations

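Neighbours of a few members, picked after their names were seen, are given here as single cases. The summit at rpl-30 lies between it and pab-1, the gene of a poly(A)-binding protein, 1015 bp away, and was 400 bp from rpl-30 in both lists. At rps-3A the summit lies in a gap of 767 bp to ifet-1, with folds of 7.39 in the neuronal list and 7.50 in the total list. At rpl-9 it lies in a gap of 518 bp to lpd-7, at rpl-27 in a gap of 222 bp to egl-30, the gene of a Gq protein alpha subunit, and at rps-29 the summit of the main peak lies in a gap of 566 bp to snt-2, a synaptotagmin gene. The gene rps-16, which has no summit within the window, is 111 bp from fib-1, and the summit nearest to it, at 1753 bp in the neuronal list and 1754 bp in the total list, is the fib-1 peak.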
